A study of Homo sapiens with 2 samples.

Results

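The 10 keratin genes KRT5, KRT7, KRT8, KRT10, KRT14, KRT17, KRT18, KRT19, KRT80 and KRT81 were examined in the established human cell line BT549, a breast cancer line with mesenchymal features. They were chosen by symbol, and all 10 had a row among the 19029 genes of the deposited table. KRT10, KRT14, KRT17, KRT18 and KRT19 are type I keratins, and KRT5, KRT7, KRT8, KRT80 and KRT81 are type II keratins. The table also held 8 other keratin genes and 27 keratin pseudogenes. RNA was sequenced from BT549 cells overexpressing the snoRNA host gene SNHG15, which makes a long non-coding RNA, and from BT549 cells carrying a control vector, both grown in DMEM with foetal bovine serum and antibiotics. Each group was 1 library, and whether the overexpressing cells were a clone or a pool was not stated in the labels. No difference below therefore has a replicate check or a p-value, and every 95% interval covers counting error only.

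Keratins are the intermediate filament proteins of epithelial cells. A keratin filament is built from dimers of a type I and a type II chain, and a chain without a partner is generally unstable. KRT8 and KRT18 form the filaments of simple and luminal epithelium, often with KRT7 and KRT19, whereas KRT5 and KRT14 form those of basal and myoepithelial cells. KRT17 accompanies injury and hyperproliferation, KRT10 is the type I keratin of differentiating epidermis, KRT80 is a broadly distributed type II keratin of epithelia, and KRT81 is a type II keratin of hair. Cells of mesenchymal character rely mainly on the intermediate filament protein vimentin, and carcinoma cells that take on this character often retain some keratin. Type I genes lie in a cluster on chromosome 17 and type II genes in a cluster on chromosome 12, with the exception of the type I gene KRT18, which neighbours KRT8 on chromosome 12.

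The SNHG15 library held 16570496 counts over genes and the vector library held 20799017. SNHG15 itself, which lies on the minus strand of chr7:44983023-44986961 (hg38), had 34450 counts in the SNHG15 library against 466 in the vector library. After scaling by the trimmed mean of M values (TMM), it stood at 1997 CPM, a count relative to the scaled library total, in the SNHG15 library against 23.3 CPM in the vector library, and was thus 85.6-fold higher (95% interval 78.1 to 94.0). Transcripts made from the vector and from the genomic locus are counted together. The design asks how overexpression of SNHG15 changes the RNA profile of the line. A few marker genes are given beside the line's mesenchymal label, and they do not test it. Vimentin, VIM, had 34469 counts in the SNHG15 library against 39817 in the vector library. E-cadherin, CDH1, had 12 counts in the SNHG15 library against 11 in the vector library. The epithelial adhesion gene EPCAM had no row, and the basal regulator TP63 had 1 count in each library. Other epithelial markers were well counted, with GATA3 at 1125 counts in the SNHG15 library against 1171 in the vector library. The P-cadherin gene CDH3 had 2551 against 5263 in the same order. Mesenchymal markers also varied, with COL1A1 at 10780 against 25771 and ZEB1 at 55 against 108. CDH2 went the other way, at 360 against 79. Of 12 such markers, 2 were called higher and 6 lower by the rule given below. These marker counts are unscaled, and after scaling the ratio was 1.002 for VIM and 1.11 for GATA3. All keratin genes together held 16166 counts in the SNHG15 library, or 0.0976% of its total, and 27333 counts in the vector library, or 0.131%. In bulk RNA, fewer cells that express a keratin and less keratin RNA per cell cannot be told apart.

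Several keratins resemble a neighbour or a pseudogene so closely that short reads may not separate them, and the sources used here do not say how reads that match several places were treated. The principal KRT81 transcript in GENCODE 29 shared 44.6% of its 50-base words with transcripts of other genes, mostly KRT86. KRT18 shared 47.6%, KRT8 37.1%, KRT14 23.8%, KRT17 17.4% and KRT7 10.8%, while KRT5 shared 3.99%, KRT19 1.79%, KRT10 0.434% and KRT80 0.42%. The words of KRT18 recurred in 43 keratin pseudogenes and those of KRT8 in 33. The single gene that shared most with KRT18, on either strand, was KRT8, whose transcripts held 21.5% of the words of KRT18. With words of 100 bases the shares were 30.3% for KRT81, 16.6% for KRT18, 6.73% for KRT8 and 5.95% for KRT14.

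A 90-base stretch of the first coding exon of KRT18 (chr12:52949443-52949532, plus strand) is set against the pseudogenes KRT18P28 (chr1:182960007-182960096, minus strand) and KRT18P17 (chr3:12788314-12788403, minus strand), because KRT18 carries most of the keratin counts. The stretch is the one in that exon with the fewest differences from KRT18P28. The sequences come from the GENCODE 29 transcripts on GRCh38 and run 5′ to 3′, and capitals mark 5 differing bases in KRT18P28 and 4 in KRT18P17.
KRT18: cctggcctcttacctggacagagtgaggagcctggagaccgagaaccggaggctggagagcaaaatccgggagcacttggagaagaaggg
KRT18P28: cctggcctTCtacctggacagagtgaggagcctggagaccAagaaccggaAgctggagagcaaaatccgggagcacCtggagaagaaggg
KRT18P17: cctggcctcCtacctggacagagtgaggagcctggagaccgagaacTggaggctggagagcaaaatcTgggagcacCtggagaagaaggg

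Among the keratins of simple epithelium, KRT18 was lower in the SNHG15 library, KRT8 had a ratio in the same direction that did not reach the fold used for a call, KRT7 stood at nearly the same level, and KRT19 was counted in the vector library and not in the SNHG15 library. KRT18 (ENSG00000111057, plus strand of chr12:52948871-52952901) had 12117 counts in the SNHG15 library against 23962 in the vector library. Its level was 702.3 CPM in the SNHG15 library against 1199.6 CPM in the vector library, 1.71-fold lower (95% interval 1.67 to 1.75). This gene alone made up 75.0% of all keratin counts in the SNHG15 library against 87.7% in the vector library. Its 16 pseudogenes in the table summed to 46 counts in the SNHG15 library against 78 in the vector library, which is 0.380% of the counts of KRT18 in the SNHG15 library against 0.326% in the vector library. Pooling them with KRT18 left the gene lower.

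KRT8 (ENSG00000170421, minus strand of chr12:52897187-52949954), the type II partner of KRT18, had 453 counts in the SNHG15 library against 730 in the vector library. Its level was 26.3 CPM in the SNHG15 library against 36.5 CPM in the vector library, a ratio of 0.718 (95% interval 0.638 to 0.809). The interval lay below 1, but the 1.39-fold difference was under the 1.5-fold used for a call. The annotated spans of KRT8 and KRT18 share 1084 bases on opposite strands, and the sources used here do not say whether the libraries kept strand, so the counts of KRT8 may hold reads of KRT18. With the counts of both genes pooled the ratio was 0.589 (0.577 to 0.602), a value set almost wholly by KRT18. The 9 KRT8 pseudogenes of the table summed to 57 counts in the SNHG15 library, 12.6% of the counts of KRT8, and 54 in the vector library, 7.40% of them. Among these, KRT8P12 had 37 counts in the SNHG15 library against 23 in the vector library, 1.86-fold higher (95% interval 1.08 to 3.28). KRT8P12 thus differed in direction from KRT8. KRT8P3, the gene that shared most with KRT8 (21.5% of its 50-base words), had 7 counts in the SNHG15 library against 16 in the vector library. Its ratio of 0.506 lay in the same direction as that of KRT8, with an interval that includes 1. The other KRT8 pseudogenes had at most 6 counts in either library.

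KRT7 (ENSG00000135480, plus strand of chr12:52232520-52252186), a type II keratin of glandular and ductal epithelium, had 116 counts in the SNHG15 library against 134 in the vector library. Its level was 6.72 CPM in the SNHG15 library against 6.71 CPM in the vector library, a ratio of 1.002 (95% interval 0.775 to 1.29). Its last 2887 bases overlap the span of KRT86 on the same strand, but KRT86 had only 17 counts in the SNHG15 library against 9 in the vector library. Of the 10.8% of its 50-base words that recur elsewhere, most recur in transcripts of KRT7-AS, which held 10.4%. With strand not stated, the counts of KRT7 may hold reads of KRT7-AS. KRT19 (ENSG00000171345, minus strand of chr17:41523617-41528308), the short type I keratin of ductal and luminal epithelium, had 0 counts in the SNHG15 library against 23 in the vector library, where its level was 1.15 CPM. A count of 0 in the SNHG15 library allows up to 3 counts, or 0.174 CPM, so by that limit KRT19 was at least 6.62-fold lower there. The interval of its ratio, which also allows for counting error in the 23 counts, reaches up to 0.201. Its mean over both libraries was under the 1 CPM required, so it is not among the genes compared.

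**Figure D1:**
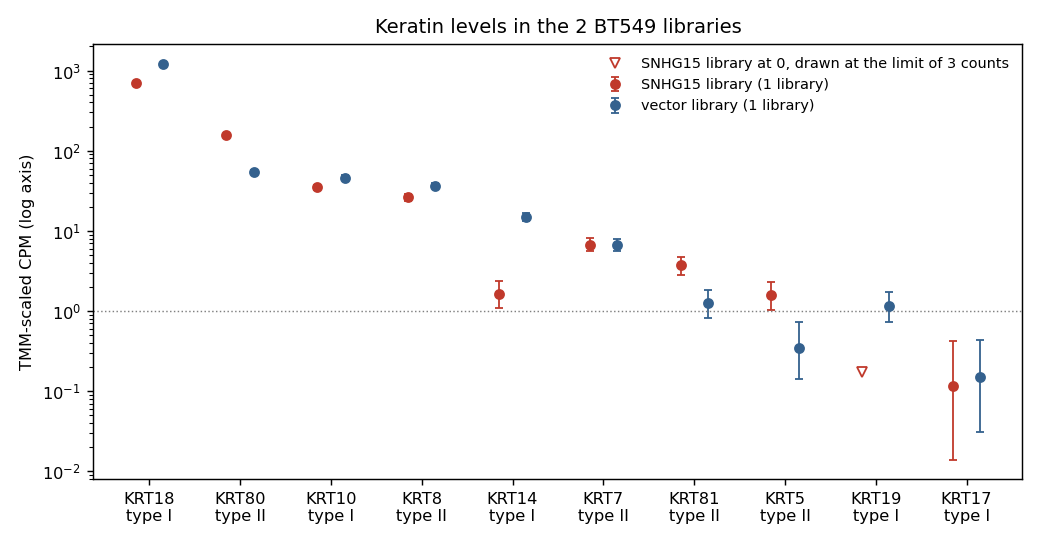
TMM-scaled CPM on a log axis for each of the 10 keratin genes in the SNHG15 library (red, left) and the vector library (blue, right), with exact Poisson 95% intervals for counting error and with KRT19 drawn as an open triangle at the limit of 3 counts in the SNHG15 library. KRT18 stands at 702.3 against 1199.6 CPM, KRT80 is higher in the SNHG15 library and KRT14 lower, and the dotted line marks 1 CPM. CPM is not corrected for gene length, so the plot compares libraries within a gene.

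Of the basal and myoepithelial keratins, KRT14 was much lower in the SNHG15 library while its type II partner KRT5 was higher, both from few counts in that library. KRT14 (ENSG00000186847, minus strand of chr17:41582279-41586921) had 28 counts in the SNHG15 library against 302 in the vector library. Its level was 1.62 CPM in the SNHG15 library against 15.1 CPM in the vector library, 9.32-fold lower (95% interval 6.32 to 14.3). KRT16, which shares 11.2% of the 50-base words of KRT14, had 2 counts in the SNHG15 library against 0 in the vector library, and KRT17 had 2 in the SNHG15 library against 3 in the vector library. KRT17 (ENSG00000128422, minus strand of chr17:41619437-41624842), a keratin of injured and hyperproliferative epithelium that also marks basal-like breast cells, gave a ratio of 0.772 with an interval of 0.0645 to 6.74, and no difference was detectable at this depth.

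KRT5 (ENSG00000186081, minus strand of chr12:52514575-52520687) had 27 counts in the SNHG15 library against 7 in the vector library. Its level was 1.56 CPM in the SNHG15 library against 0.350 CPM in the vector library, 4.47-fold higher (95% interval 1.90 to 12.1). Its mean of 0.958 CPM was just under the 1 CPM required, so it is not among the genes compared. KRT15, a type I keratin of basal cells that was not among the 10, had 23 counts in the SNHG15 library against 98 in the vector library. It was 3.68-fold lower (95% interval 2.32 to 6.08). KRT14, KRT15 and KRT19, which lie close to each other in the type I cluster, were thus each lower in the SNHG15 library. KRT9, a type I keratin of palm and sole epidermis in the same cluster, had 3 counts in the SNHG15 library against 9 in the vector library, a ratio of 0.386 with an interval of 0.0672 to 1.55.

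KRT10 (ENSG00000186395, minus strand of chr17:40818117-40822595), the type I keratin of differentiating epidermis, was the second of the type I keratins by level per length and differed by less than 1.5-fold. It had 603 counts in the SNHG15 library against 922 in the vector library. Its level was 34.9 CPM in the SNHG15 library against 46.2 CPM in the vector library, a ratio of 0.757 (95% interval 0.682 to 0.840). The interval lay below 1 and the 1.32-fold difference was under 1.5-fold. KRT1, the usual partner of KRT10 in epidermis, had no row in the table. TMEM99, which shares 3490 bases with KRT10 on the opposite strand, had 346 counts in the SNHG15 library against 526 in the vector library and nearly the same ratio as KRT10, 0.762 (0.663 to 0.874). The overlap is one of gene spans, and 0.434% of the 50-base words of the principal KRT10 transcript recur in TMEM99 transcripts.

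The type II keratins KRT80 and KRT81 were each about 3-fold higher in the SNHG15 library, KRT80 from deep counts and KRT81 from shallow ones. KRT80 (ENSG00000167767, minus strand of chr12:52168996-52192000) had 2691 counts in the SNHG15 library against 1084 in the vector library. Its level was 156.0 CPM in the SNHG15 library against 54.3 CPM in the vector library, 2.87-fold higher (95% interval 2.68 to 3.09). Its span overlaps no other gene of the table, and the 0.42% of its 50-base words that recur elsewhere is the smallest share of the 10. KRT81 (ENSG00000205426, minus strand of chr12:52285913-52291534) had 64 counts in the SNHG15 library against 25 in the vector library. Its level was 3.71 CPM in the SNHG15 library against 1.25 CPM in the vector library, 2.96-fold higher (95% interval 1.84 to 4.91). Its whole span of 5622 bases lies within that of KRT86 on the opposite strand. KRT86 gave a ratio of 2.19 with an interval of 0.922 to 5.57, and the neighbouring hair keratin KRT83 had 8 counts in the SNHG15 library against 0 in the vector library, at least 3.09-fold higher by the limit of 3 counts, with an interval of the ratio from 1.98 upwards. The type I hair keratins KRT32 (8 counts in the SNHG15 library against 15 in the vector library) and KRT34 (2 counts against 10) had ratios below 1, 0.617 and 0.232, with intervals that include 1 (0.227 to 1.55 and 0.0247 to 1.09). The 3 hair keratins of type II had ratios above 1, with an interval that includes 1 for KRT86 and with reads that may be divided between KRT81 and KRT86.

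Of the 10 keratins, 7 reached a mean of 1 CPM and were compared, all but KRT5, KRT17 and KRT19. A gene was called where its ratio reached 1.5-fold and its 95% interval excluded 1. KRT80 and KRT81 were called higher, KRT14 and KRT18 lower, and KRT7, KRT8 and KRT10 neither. By the same rule 13.3% of the 12934 genes compared were higher in the SNHG15 library (1725 genes) and 12.2% were lower (1574 genes). With the whole interval required to lie beyond 2-fold, KRT80 was higher and KRT14 lower, against 2.2% of all genes higher (285) and 2.45% lower (317). The median log2 ratio of the 7 keratins was −0.40, against 0.02 for all genes compared. With 7 genes these shares and the median describe the keratins in these 2 libraries and were not tested against other genes. The called keratins split by type, with both higher ones of type II and both lower ones of type I.

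**Figure D2:**
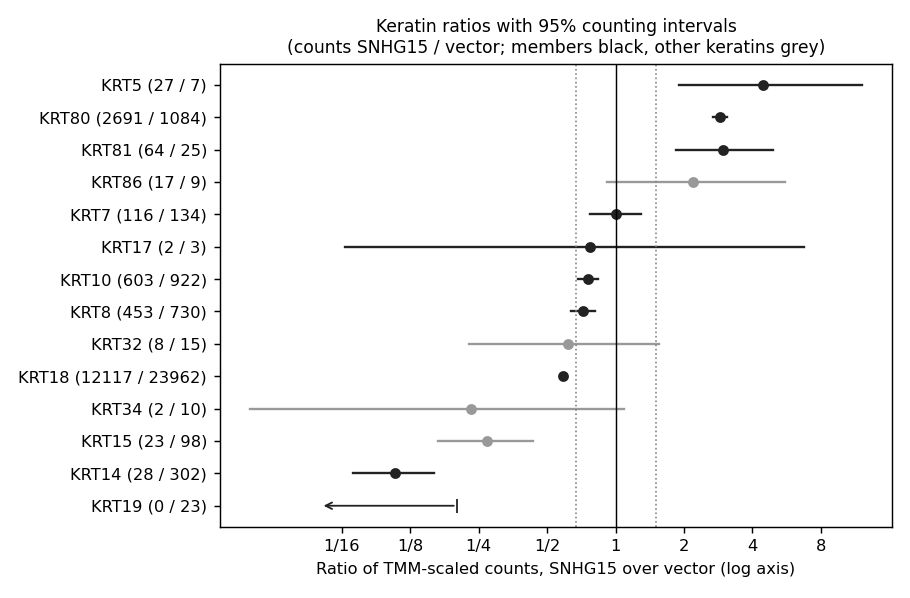
Ratio of TMM-scaled counts, SNHG15 over vector, on a log axis with exact 95% counting intervals for the 10 keratin genes (black) and the other keratin genes with at least 10 counts in a library (grey), with counts beside each name and dotted lines at 1.5-fold. KRT80 (2.87) and KRT81 (2.96) lie to the right and KRT18 (0.585) and KRT14 (0.107) to the left, and the arrow for KRT19 starts at the upper bound of its interval, 0.201.

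Per unit of length, KRT18 was the leading keratin of both libraries and the places below it were reordered. In the deposited FPKM (fragments per kilobase of gene length, scaled to the library total), KRT18 stood at 110.9 in the SNHG15 library against 174.7 in the vector library. KRT80 followed in the SNHG15 library at 17.6 FPKM, level with KRT10 at 17.1, whereas in the vector library KRT10 followed at 20.9 FPKM and KRT80 came after it at 5.64. KRT14 stood at 0.579 FPKM in the SNHG15 library, below KRT8 (1.92), KRT81 (1.53) and KRT7 (1.02). In the vector library KRT14 stood at 4.98 FPKM, above KRT8 (2.47) and KRT7 (0.943). KRT5 stood at 0.201 FPKM in the SNHG15 library against 0.0415 in the vector library, KRT17 at 0.0218 against 0.0260, and KRT19 at 0 against 0.258. With these few counts the order of KRT5 and KRT17 in the vector library, 7 counts against 3, was not resolved.

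The order depended in part on which gene length was used. The length behind the deposited FPKM equalled the sum of all distinct annotated exons, with overlapping exons of alternative transcripts added repeatedly, to within 1% for 87.0% of 12747 genes with more than 20 vector counts. The median gene was thereby given 1.54 times its merged exon length, so the FPKM of genes with many transcripts is low. Among the examined keratins KRT10 was an exception, with a length of 2124 bases, that of its longest transcript, against an exon sum of 2341. KRT17 (5545 against 6909) and KRT7 (6832 against 6939) also departed from the sum. KRT8, with 17 annotated transcripts, stood in the SNHG15 library at 1.92 FPKM, 3.97 per merged exon length and 9.55 per longest transcript, and in the vector library at 2.47, 5.10 and 12.3 on the same scales. Per longest transcript KRT8 passed KRT14 in the vector library (12.3 against 8.74), and KRT7 passed KRT81 in the SNHG15 library (3.99 against 2.002). Per merged exon length KRT80 stood at 37.3 in the SNHG15 library, clearly above KRT10 at 16.97. KRT18 led under all 3 lengths in both libraries. The ratio of the libraries for a given gene does not depend on the length.

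**Figure D3:**
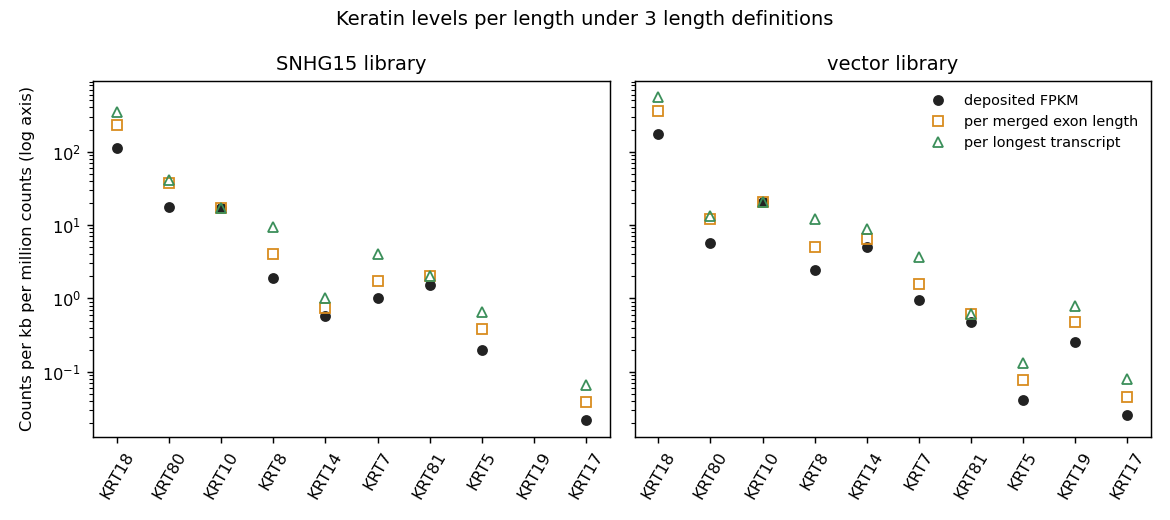
Level of each of the 10 keratin genes per kilobase, scaled to the library total, on a log axis, in the SNHG15 library (left panel) and the vector library (right panel), as deposited FPKM (circles), per merged exon length (squares) and per longest transcript (triangles), with KRT19 at 0 and so not drawn in the SNHG15 library. The 3 marks of KRT10 coincide near 17 and 21, while those of KRT8 spread from 1.92 to 9.55 in the SNHG15 library and from 2.47 to 12.3 in the vector library.

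Because filaments need both types, the balance of type I over type II messages was examined. Summed over the 5 keratins of each type, type I reached 128.6 FPKM and type II 22.2 FPKM in the SNHG15 library, a ratio of 5.78. In the vector library type I reached 200.9 FPKM and type II 9.56 FPKM, a ratio of 21.0. The type I excess was thus smaller in the SNHG15 library, with a lower type I sum set by KRT18 and a higher type II sum set by KRT80. The ratio was 5.40 in the SNHG15 library against 19.9 in the vector library per merged exon length, and over all 18 keratin genes of the table it was 5.64 in the SNHG15 library against 20.8 in the vector library. Without KRT18 the remaining type I keratins came, in FPKM, to 0.797 of the type II sum in the SNHG15 library against 2.73 in the vector library. This ratio depends on the length used. In the vector library KRT10 stood at 20.9 both in FPKM and per longest transcript. KRT14 rose from 4.98 to 8.74 between these scales, KRT80 from 5.64 to 13.4 and KRT8 from 2.47 to 12.3. Per longest transcript little type I excess is thus left without KRT18 in the vector library, where the type II sum was 30.1. In the SNHG15 library no such excess was present in FPKM either, at 0.797. These are message levels, and protein was not measured.

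Within the classical pairs, KRT18 exceeded its partner KRT8 57.7-fold in FPKM in the SNHG15 library and 70.9-fold in the vector library. Per longest transcript the excess was 36.7-fold in the SNHG15 library and 45.0-fold in the vector library. KRT8 thus had far less message per length than KRT18 in both libraries, with the limits on counting KRT8 given above, namely 37.1% shared words and an overlap with KRT18. KRT14 exceeded KRT5 2.89-fold in FPKM in the SNHG15 library and 120.1-fold in the vector library, from 28 and 27 counts in the SNHG15 library against 302 and 7 in the vector library. Per longest transcript KRT14 exceeded KRT5 1.58-fold in the SNHG15 library and 65.7-fold in the vector library. KRT80 exceeded KRT8 9.15-fold in FPKM in the SNHG15 library and 2.29-fold in the vector library. Per longest transcript the excess was 4.37-fold in the SNHG15 library and 1.09-fold in the vector library, so in the vector library the lead of KRT80 over KRT8 depends on the length used. KRT18 stood at 0.541 of the FPKM of VIM in the SNHG15 library against 0.927 in the vector library. Of the 2 genes, VIM had a ratio of 1.002 between libraries (95% interval 0.988 to 1.02).

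The 6 keratins on chromosome 12 spanned 784 kb and the 4 on chromosome 17 spanned 807 kb, and their non-keratin neighbours were counted beside them. Within 2 Mb of the chromosome 12 keratins, 15 of 63 other genes compared were higher in the SNHG15 library and 5 were lower, with a median log2 ratio of 0.22. Over all of chromosome 12 outside keratins, 115 of 672 genes were higher and 42 lower, with a median of 0.19. EIF4B, a translation initiation factor gene 53257 bases beyond KRT18, had 1607 counts in the SNHG15 library against 1090 in the vector library and was 1.71-fold higher (95% interval 1.58 to 1.84), the opposite direction to KRT18. Within 2 Mb of the chromosome 17 keratins, 3 of 89 other genes were higher and 15 lower, with a median log2 ratio of −0.14. Over all of chromosome 17 outside keratins, 58 of 808 genes were higher and 102 lower, with a median of −0.04. EIF1, the gene beyond KRT17, had a ratio of 1.10 (1.05 to 1.16). KRT14, KRT15 and KRT19 on chromosome 17 and KRT80 and KRT81 on chromosome 12 thus differed in the same direction as most called neighbours, and KRT18 in the opposite one. Under the fold of a call, KRT8 (ratio 0.718) also ran opposite to most called neighbours, and KRT10 (0.757) ran with them. Whether the neighbourhood has a part in the keratin ratios was not tested.

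**Figure D4:**
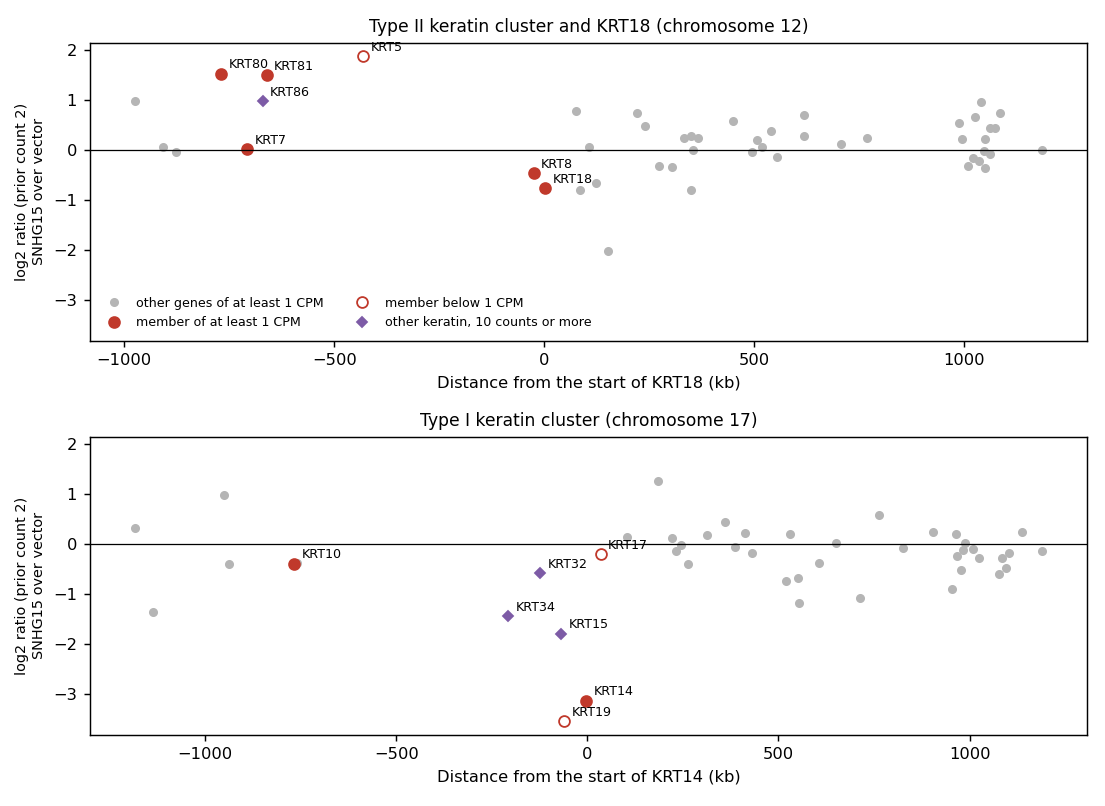
Log2 ratio of SNHG15 over vector, with a prior count of 2, against distance in kb from the start of KRT18 (top, chromosome 12) and of KRT14 (bottom, chromosome 17), for the examined keratins (red, open where the mean is under 1 CPM), other keratins with at least 10 counts in a library (purple) and other genes compared (grey). KRT80, KRT81 and KRT5 lie above 0 and KRT8 and KRT18 below it, and the type I keratins of the lower panel all lie below 0, with the placing of KRT19 depending on the prior count since it had 0 counts in the SNHG15 library.

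Gene lists around the keratins are given by their counts beside the shares over all genes compared, 13.3% higher and 12.2% lower, and a count near those shares is no result about a list. Of 7 intermediate filament genes other than keratins that were compared among 15 listed, 1 was higher, 0 were lower and 6 were neither, which is near those shares, with a median log2 ratio of 0.35. LMNB1, the B-type lamin of dividing nuclei, had 1643 counts in the SNHG15 library against 734 in the vector library and was 2.59-fold higher (95% interval 2.37 to 2.83). The A-type lamin gene LMNA had a ratio of 0.840 (0.821 to 0.858), under the fold of a call. Nestin, NES, which many mesenchymal and neural cells use beside vimentin, had 3 counts in the SNHG15 library against 2 in the vector library.

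Genes that anchor keratin filaments were mixed. Of 6 desmosome genes compared among 14 listed, 2 were higher, 1 was lower and 3 were neither, against 13.3% higher and 12.2% lower over all genes, with a median log2 ratio of 0.33. JUP, plakoglobin, had 2155 counts in the SNHG15 library against 1045 in the vector library and was 2.39-fold higher (95% interval 2.22 to 2.57). DSG2, a desmosomal cadherin of simple epithelium, was 1.70-fold higher (1.24 to 2.33). PKP3, a plakophilin, was 2.44-fold lower (2.13 to 2.81), at 282 counts in the SNHG15 library against 797 in the vector library. Desmoplakin, DSP, which ties keratin to the desmosome, had 54 counts in the SNHG15 library against 52 in the vector library, a ratio of 1.20 (0.806 to 1.79).

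All 9 hemidesmosome genes listed were compared, of which 0 were higher, 2 were lower and 7 were neither, against 13.3% higher and 12.2% lower over all genes. LAMA3, the alpha chain of the laminin that hemidesmosomes bind, was 2.48-fold lower (95% interval 2.04 to 3.03). COL17A1, the transmembrane collagen of the hemidesmosome, had 7 counts in the SNHG15 library against 40 in the vector library and was 4.94-fold lower (2.19 to 13.1). The plakin gene PLEC, at 20861 counts in the SNHG15 library against 26573 in the vector library, had a ratio of 0.909 (0.892 to 0.925). The median log2 ratio of the list was −0.06, and scaling by library totals turned it to 0.05. Among 9 linkers and partners of keratin compared, 2 were higher, 0 were lower and 7 were neither, with a median log2 ratio of 0.31. SFN, the 14-3-3 sigma protein that binds keratins, had 39 counts in the SNHG15 library against 3 in the vector library, a ratio of 15.05 with an interval of 4.78 to 76.1. PNN, a nuclear and desmosome-associated protein, was 1.67-fold higher (1.41 to 1.98).

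Of 9 regulators of keratin or epithelial genes that were compared among 18 listed, 0 were higher, 3 were lower and 6 were neither, against 13.3% higher and 12.2% lower over all genes. ELF3, an epithelial ETS factor, had 8 counts in the SNHG15 library against 65 in the vector library and was 7.02-fold lower (95% interval 3.36 to 16.9). HR, a corepressor named for hairlessness, was 1.76-fold lower (1.33 to 2.34), and GRHL3, a grainyhead factor of epidermis, 1.70-fold lower (1.13 to 2.62). The more abundant GATA3 and TFAP2A had ratios of 1.11 (1.02 to 1.21) and 1.05 (0.963 to 1.14). The median log2 ratio of the list was −0.11, and 0.00 with library totals.

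Lists of cell type markers that include the keratins were read beside them. Of 8 luminal breast markers compared among 14 listed, 2 were higher, 2 were lower and 4 were neither, against 13.3% higher and 12.2% lower over all genes, with a median log2 ratio of −0.23. The lower ones were KRT18 and ELF3. The higher ones were CD24, a surface glycoprotein of luminal cells, which was 4.03-fold higher (95% interval 3.65 to 4.45) at 1767 counts in the SNHG15 library against 508 in the vector library, and the mucin MUC1, which was 1.76-fold higher (1.41 to 2.19). ESR1, EPCAM, ELF5 and TFF1 had no row. Of 12 basal or myoepithelial markers compared among 16 listed, 3 were higher, 3 were lower and 6 were neither, with a median of −0.13. KRT14, LAMA3 and the P-cadherin gene CDH3 were lower, CDH3 by 1.78-fold (1.70 to 1.87), while the contractile gene MYLK was 1.67-fold higher (1.44 to 1.94). The keratins of these lists thus moved with some of their markers and against others.

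Markers of simple epithelium were near 0 in both libraries. Of 14 listed, 6 had a row, and their counts summed to 30 in the SNHG15 library against 67 in the vector library. CLDN7, a claudin of tight junctions, was the 1 member compared, at 2 counts in the SNHG15 library against 40 in the vector library, a ratio of 0.0579 (0.00678 to 0.223). Of 14 stratified squamous markers 5 had a row, and KRT10 supplied 603 of their 623 counts in the SNHG15 library and 922 of 931 in the vector library. Of 3 compared genes of the cornified envelope list, of 18 listed, 2 were higher, 0 were lower and 1 was neither. Over all genes 13.3% were higher and 12.2% lower. S100A8 (1.62-fold, 1.33 to 1.97) and PI3 (2.08-fold, 1.31 to 3.37) were higher, while S100A9 had a ratio of 0.756 (0.517 to 1.10). Of 3 compared genes of the injury response, SFN was higher and the cytokine gene IL1B was 3.17-fold lower (2.71 to 3.73). The third, STAT3, was neither, with a ratio of 1.49 (1.43 to 1.55). KRT6A, KRT16 and KRT17, the keratins of that response, had at most 3 counts in either library.

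All 12 mesenchymal markers listed were compared, of which 2 were higher, 6 were lower and 4 were neither, against 13.3% higher and 12.2% lower over all genes, with a median log2 ratio of −0.51. Their summed level was 4808 CPM in the SNHG15 library against 6393 CPM in the vector library. The type I collagen genes COL1A2 and COL1A1 and the surface gene THY1 were 7.33-fold, 2.07-fold and 2.004-fold lower, and the neural cadherin gene CDH2 was 5.28-fold higher (4.12 to 6.82). The lower keratins KRT18 and KRT14 thus went in the direction of most called mesenchymal markers, and the higher KRT80 and KRT81 in the opposite one. Of 6 haematopoietic markers only CD14 had a row, with 133 counts in the SNHG15 library against 347 in the vector library. Of 5 endothelial markers TEK had 3 counts in the SNHG15 library against 74 in the vector library and KDR had 1 in each. Their part in the keratin ratios was not tested.

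**Figure D5:**
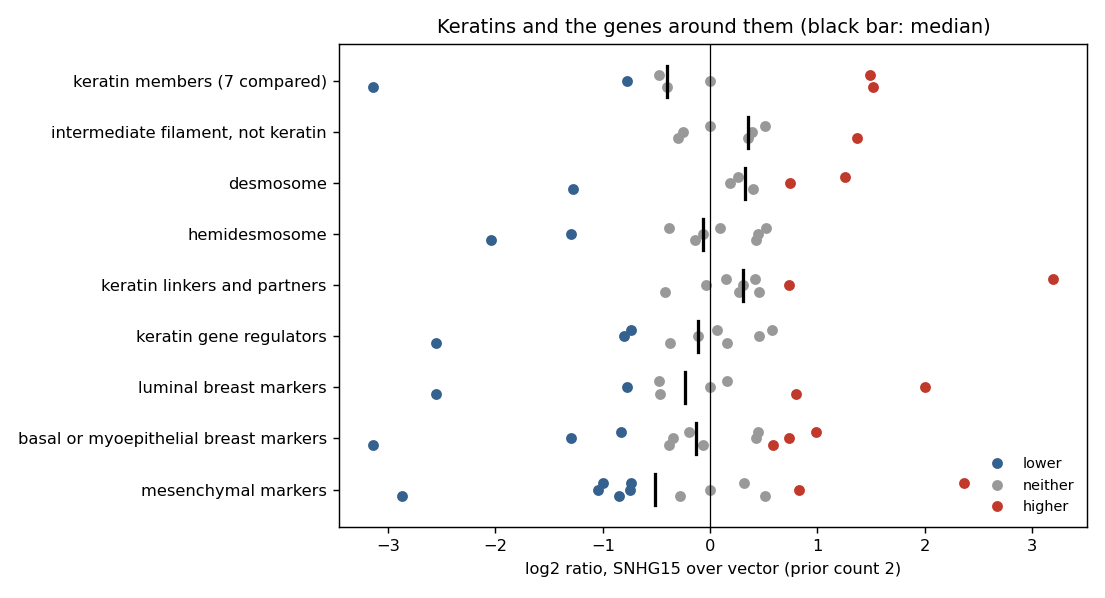
Log2 ratio of SNHG15 over vector, with a prior count of 2, for each gene compared of the keratins and of 8 lists around them, coloured as higher (red), lower (blue) or neither (grey), with the list's median as a black bar. The keratin median lies at −0.40 and that of other intermediate filament genes at 0.35, and most lists hold genes on both sides of 0.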

How the data were processed

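RNA of 1 library per group was sequenced, and the groups were taken from the genotype in the labels. Reads were placed on hg38, per the submitters' processing notes. The aligner, counter, annotation and strandedness are not given in the sources used here. Per the file headers, the deposited table holds whole-number counts per gene, unnormalized, and FPKM values made by the authors, which follow unscaled library totals. Its log2 fold changes and p-values were deposited by the authors and not used, nor were 3 deposited subsets, whose rows all stand in the full table.

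TMM factors from the whole table (1.04 for the SNHG15 library, 0.960 for the vector library) came from edgeR 4.0.16 in R 4.3.3, and CPM used the scaled totals. Each ratio has an exact conditional-binomial (Clopper-Pearson) 95% interval from its 2 counts, computed with scipy 1.17.1. Reads are not independent molecules, so intervals and the limit of 3 counts for a 0 cover counting error only. A prior count of 2 entered log2 ratios. Comparison was limited to genes averaging 1 CPM or more, of which the median one had 284 counts in the SNHG15 library against 315 in the vector library. Functions were tested on simulated data.

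GENCODE 29 matched 18903 identifiers and gave lengths, overlaps and sequences. A gene's principal transcript is the one tagged so and in CCDS, with the lowest transcript number. Some sequences are not reported here. Named genes were the 10 keratins, other keratins and keratin pseudogenes with at least 10 counts, neighbours and overlapping genes, and from each list up to 4 called members and up to 2 of highest CPM. KRT6A, KRT9, KRT83, NES, CDH1, EPCAM, ESR1, ELF5, TFF1, TP63, DSP, KRT1, KDR, ZEB1, ACTA2 and MME were chosen for naming with their values known. The keratins and all lists were chosen with earlier results of these data known. Alternatives were library totals, DESeq2 1.42.0 size factors, no filter or 5 CPM, removal of the GC trend, FPKM with pseudocounts of 1 and 0.1, a prior count of 0.5, pooled counts and all keratin genes. Merged exon and longest transcript lengths, the balance without KRT18 and the scalings of list medians were added after seeing the data.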

Additional observations from a re-analysis of the deposited data

How the results depend on the processing

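No paired analysis was possible because each group holds 1 library, and no replicate could be left out. Of the 7 keratins compared, 4 were called, 2 higher and 2 lower, under TMM scaling, library totals, DESeq2 size factors and removal of the GC trend. Without a filter 6 of 10 were called, 3 higher and 3 lower, with KRT5 and KRT19 added, and with a minimum of 5 CPM 3 of 6. Requiring the whole interval beyond 2-fold left 2, by the stricter construction, against 2.2% of all genes higher and 2.45% lower. The share of all genes called was computed only with TMM scaling at a mean of 1 CPM, for the 1.5-fold and 2-fold rules. The keratin counts under the other settings thus have no share over all genes beside them. The median log2 ratio of −0.40 ran from −0.44 to −0.28 under the other alternatives and was −0.25 with FPKM and a pseudocount of 1. It was −0.28 both with library totals and with FPKM and a pseudocount of 0.1, and FPKM also follow unscaled library totals. Library totals moved the median of all genes from 0.02 to 0.13, so the keratins stay below it. Of 37 alternative ratios for single keratins, 36 kept their call, and the exception was KRT8 pooled with the overlapping KRT18. The tally includes KRT5, KRT17 and KRT19, which were not compared. Library totals and size factors shift every ratio by a common factor, so these values are not separate checks. The log2 ratio fell with GC content over 12895 genes compared (Spearman rho −0.32). With that trend removed the ratio of KRT18 was 0.657 (0.643 to 0.671), only just past the 1.5-fold of a call. The ratio of KRT7 was then 1.26 (0.974 to 1.63). The ratio of type I over type II keratins was 5.40 per merged exon length, 6.36 per longest transcript and 0.797 without KRT18 in the SNHG15 library, and 19.9, 19.4 and 2.73 in the vector library. The values without KRT18 are in deposited FPKM. Of 24 alternative list medians 21 kept their sign, and hemidesmosome genes changed to 0.05 with library totals and 0.28 with the GC trend removed, and regulators to 0.00 with library totals, and the cause was not tested. Low counts limit KRT5, KRT17, KRT19 and KRT81.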
